A study of Mus musculus with 6 samples.

Results

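Histone genes were examined in poly(A) RNA of mouse neural stem cells (NSCs) in which Tsc2 was mutated. They were taken by name, as every gene symbol that starts with Hist1h, Hist2h, Hist3h, Hist4h, H2af, H3f3 or H1f, which gave 85 of the 24972 genes in the table. Of these, 69 were clustered histone genes (the Hist names) and 16 were replacement variants (the H2af, H3f3 and H1f names). In GENCODE M21 on the mouse build mm10, 55 of the clustered genes lay on chromosome 13, 10 on chromosome 3, 3 on chromosome 11 and 1 on chromosome 6, whereas the replacement variants were spread over 9 chromosomes.

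The study sequenced 6 monolayer cultures of the V-SVZ (ventricular-subventricular zone), where neural stem cells line the lateral ventricles, to find transcripts that differ when Tsc2 is lost. There were 3 Tsc2 mut/mut cultures and 3 Tsc2 wt/wt cultures. Per the study's methods, neonatal pups carried a tamoxifen-activated Cre recombinase driven by a Nestin transgene and a Cre-dependent red fluorescent reporter. The Cre line is listed as C57BL/6 and the reporter line as B6.Cg, and no background is given for the conditional Tsc2 line. Both genotypes were given tamoxifen, and the mut/mut pups carried conditional Tsc2 alleles on both chromosomes. Recombination was thus limited to cells in which Nestin drove Cre before culture. Cells were grown with EGF and FGF, and RNA was selected by its poly(A) tail. Tsc2 encodes tuberin, which restrains the growth kinase complex mTORC1. The labels do not say whether the cultures of a genotype came from separate pups, so p-values measure only the spread between these cultures, which may be technical.

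Histones package DNA into nucleosomes, each built from the core histones H2A, H2B, H3 and H4, while the linker histone H1 binds the DNA between them. Clustered histone genes are the replication-dependent genes: they are transcribed mainly in S phase, lack introns, and give the only abundant animal mRNAs that end in a conserved stem-loop and not in a poly(A) tail. Replacement variants are made throughout the cell cycle from ordinary, mostly spliced and polyadenylated mRNAs, and are put into chromatin outside replication. A poly(A) library therefore holds only that part of clustered histone RNA that was polyadenylated or carried along, and its values are not levels of clustered histone mRNA as a whole.

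The stem-loop was looked for after the stop codon of each annotated transcript, on the transcript strand. It was found in 45 of 67 coding clustered genes (67.2%) and in 1 of 15 coding replacement variants (6.67%), against 59 of all 21901 coding genes (0.269%). In 15 of the 67 clustered genes and 3 of the 15 variants the annotated transcript ended within 2 bases of the stop codon. A stem-loop could not be found in those models, so its absence there says nothing of the RNA. It lay 21 to 58 bases past the stop codon of the clustered genes (median 31). The following stem-loops are those of the genes on which the results turn, 5′ to 3′ as DNA with up to 5 flanking bases, and the capitals mark the paired arms.
Hist1h2ao, chr13:21810893-21810918, plus strand: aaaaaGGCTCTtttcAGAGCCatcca
Hist1h2ad, chr13:23574890-23574915, plus strand: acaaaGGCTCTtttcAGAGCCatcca
Hist1h1c, chr13:23739507-23739532, plus strand: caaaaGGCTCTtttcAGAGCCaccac
Hist1h3c, chr13:23745042-23745067, minus strand: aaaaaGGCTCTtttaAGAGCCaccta
Hist3h2ba, chr11:58949344-58949369, plus strand: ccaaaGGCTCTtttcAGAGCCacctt
Hist1h4i, chr13:22040961-22040986, minus strand: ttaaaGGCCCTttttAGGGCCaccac
H2afx, chr9:44335235-44335260, plus strand: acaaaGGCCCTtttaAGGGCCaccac
The arm GGCTCT was shared by 33 of the 46 histone genes with a stem-loop, which were all those of the H1, H2A, H2B and H3 classes among the clustered genes. The H4 genes had GGCCCT in 10 cases and GGTCCT in 2, and H2afx had the GGCCCT form.

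Some histone genes also carry an ordinary polyadenylation signal (AATAAA or ATTAAA) within the last 50 bases of the annotated transcript. It was present in 17 of the 67 coding clustered genes (25.4%) and in 9 of the 15 coding replacement variants (60.0%), against 72.2% of all coding genes. Models that ended within 2 bases of the stop codon (15 of the 67 and 3 of the 15) could not show a signal past it. In the genes below the signal is in capitals within its 10 flanking bases on either side, and these are shown because such transcripts can be captured by their tail.
Hist1h1c, chr13:23740332-23740357, plus strand: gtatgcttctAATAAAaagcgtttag
Hist3h2ba, chr11:58949497-58949522, plus strand: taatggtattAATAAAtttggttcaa
Hist1h2be, chr13:23583674-23583699, minus strand: tgtgttccttATTAAAgcattcctga
H2afx, chr9:44336033-44336058, plus strand: ggctaattttATTAAAggatcgtttg
H2afz, chr3:137866887-137866912, plus strand: ctgcttactaATTAAAcagtgcatct
H3f3a, chr1:180800838-180800863, minus strand: tttgaaaaatAATAAAagtaccaata
H2afx held both ends, with 822 bases of annotated transcript after its stem-loop, and Hist1h1c (840 bases after) and Hist3h2ba (169 bases after) did as well. In Hist1h2ao and Hist1h2ad the model stopped 31 and 42 bases after the stem-loop, with no signal.

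The deposited values were gene counts normalised with DESeq2. Counted in units of 1000000, the total per library was 45.0 to 55.7 in the mut/mut-labelled libraries and 29.0 to 30.4 in the wt/wt libraries. Depth could only be approximated. Taking the most frequent value above 0 as the worth of a read gave 23.7 to 49.0 in those units for the mut/mut-labelled libraries and 33.7 to 55.3 for wt/wt, with mut/mut replicate 3 the shallowest, but only 23.7% to 39.7% of the values below 200 reads came within 0.1 of a whole multiple. Tsc2 itself had 4766, 5645 and 8210 normalised counts in the mut/mut-labelled libraries, against 3231, 2934 and 2794 in wt/wt, a log2 fold change of 1.02 ± 0.20 (SE, limma adjusted p = 0.00101). Reads over the whole gene include parts that Cre leaves, so this value goes against the label but does not check it. The paper reports that the NSC subcultures had lost Tsc2, with a western blot for tuberin of the sequenced NSCs. The genotype is given as labelled. Fold changes below are differences of mean log2(value + 1), mut/mut minus wt/wt, and so come out too small for genes of low level. The NSC marker list summed to 196073 to 227983 in the mut/mut-labelled libraries and 223614 to 253649 in wt/wt, but most of the sum was Vim (0.66), the 1 marker called higher. Of the 8 markers 4 were called lower: Fabp7 (-2.43), Slc1a3 (-1.35), Sox2 (-1.28) and Sox9 (-0.61). Of all genes tested, 38.7% were called lower and 36.8% higher. With the GC and length trend described below removed, Vim (-0.07) and Sox9 (-0.19) lost their calls, and Egfr was called higher (2.33). Fabp7, Slc1a3 and Sox2 were still called lower. As deposited, 5 of 6 markers of oligodendrocyte precursors were called lower, among them Gpr17 (-5.41) and Pdgfra (-5.26). Olig2 was called higher as deposited (0.35) but lower with the trend removed (-0.45). It held most of their sum, which was 48544 to 57133 in mut/mut and 51534 to 57165 in wt/wt. Of the 4 tested mural markers 2 were called higher, Acta2 and Tagln (5.87 and 5.48), and 1 lower, Cspg4 (-2.58). The 7 mural markers summed to 6417 to 9459 in mut/mut and 6806 to 10378 in wt/wt. Acta2 and Tagln held most of the mut/mut sum, and Cspg4 most of the wt/wt sum. Microglial markers summed to 20.4 to 42.2 against 234 to 516 (Cx3cr1, Aif1, Ptprc and Itgam at 0 in every mut/mut-labelled library), and ependymal markers to 5912 to 8559 against 730 to 1111, of which Foxj1 made most. In bulk RNA, a change in the number of cells of a type cannot be told apart from a change in RNA per cell, and the part of these markers in the histone values was not tested.

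Across the 13964 genes tested (mean of at least 10 normalised counts over the 6 libraries), 75.5% were called at an adjusted p under 0.05 by limma, with 36.8% above wt/wt, 38.7% below it and a median log2 fold change of -0.07. Changes also moved with transcript composition. Over 13239 tested coding genes, the log2 fold change had a Spearman correlation of 0.59 with GC content and of -0.46 with transcript length, a description across genes that share the same libraries. Tested clustered genes had a median transcript length of 555.5 bases and a median GC content of 58.3%, against 3245 bases and 50.4% over all tested coding genes. For this reason, for most of the genes and lists described below whose call or direction changes once that trend is removed, that value is given as well.

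Of the 69 clustered genes, 44 passed the filter on low values, and 32 of these (72.7%) were called, 28 higher and 4 lower, with a median log2 fold change of 1.30. The share called is close to the 75.5% of all genes, whereas the share called higher is 63.6% against 36.8%. The filter shaped these counts, because 15 of the 44 passed only through the mut/mut group (wt/wt mean below 10) and 3 only through wt/wt. Of the 26 with a mean of at least 10 in both groups, 13 were called higher, 1 lower, and 12 were not called. With the GC and length trend removed, 9 clustered genes were called higher and 6 lower, with a median of 0.18 against 0.13 over all genes. In that setting 5556 of 13813 genes were called higher and 4125 lower. With column totals set equal, which moved the median of all genes to -0.77, 12 clustered genes were called higher and 6 lower, with a median of 0.60. Of all 13964 genes, 2874 were then called higher and 7612 lower. The median of the clustered genes thus lay 1.37 above that of all genes both as deposited and with equal totals, and 0.05 above it once the trend was removed.

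**Figure D1:**
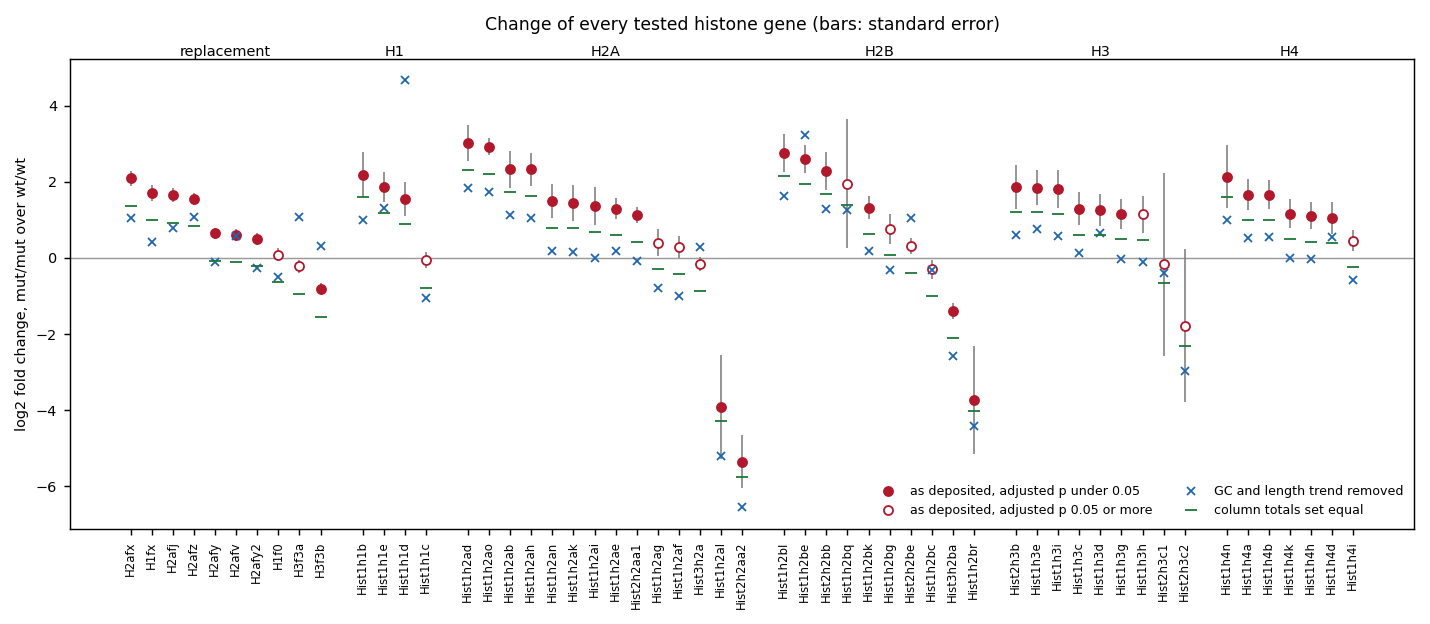
Log2 fold change of mut/mut over wt/wt (y axis) for each of the 54 tested histone genes (x axis), grouped as replacement variants and clustered H1, H2A, H2B, H3 and H4 genes. Circles with bars are the values as deposited with their standard error (filled: adjusted p under 0.05), crosses the values after removing the GC and length trend, and dashes those with column totals set equal. Most clustered genes sit above 0 as deposited, while the crosses of the 16 tested H3 and H4 genes all lie below their circles, with medians of 0.13 (H3) and 0.53 (H4).

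The clustered genes as a sum took 0.126%, 0.131% and 0.209% of the normalised total in the mut/mut-labelled libraries, against 0.0468%, 0.0489% and 0.0463% in wt/wt. The groups did not overlap, and the summed values were 5.53-fold higher (mean ± SD of 3 libraries, 77337 ± 33843 normalised counts in mut/mut against 13976 ± 471 in wt/wt). This rise rested on 2 H2A genes. Hist1h2ao and Hist1h2ad made up 90.2%, 90.7% and 93.8% of the clustered sum in the mut/mut-labelled libraries, and 62.4%, 68.0% and 57.7% in wt/wt. Without them the other 67 genes summed to 5577, 5498 and 7237 normalised counts in the mut/mut-labelled libraries and 5337, 4578 and 5677 in wt/wt, where the groups overlapped, and their share of the total was lower (mean ± SD of 3, 0.0125% ± 4.14e-04 in mut/mut against 0.0176% ± 0.00195 in wt/wt).

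**Figure D2:**
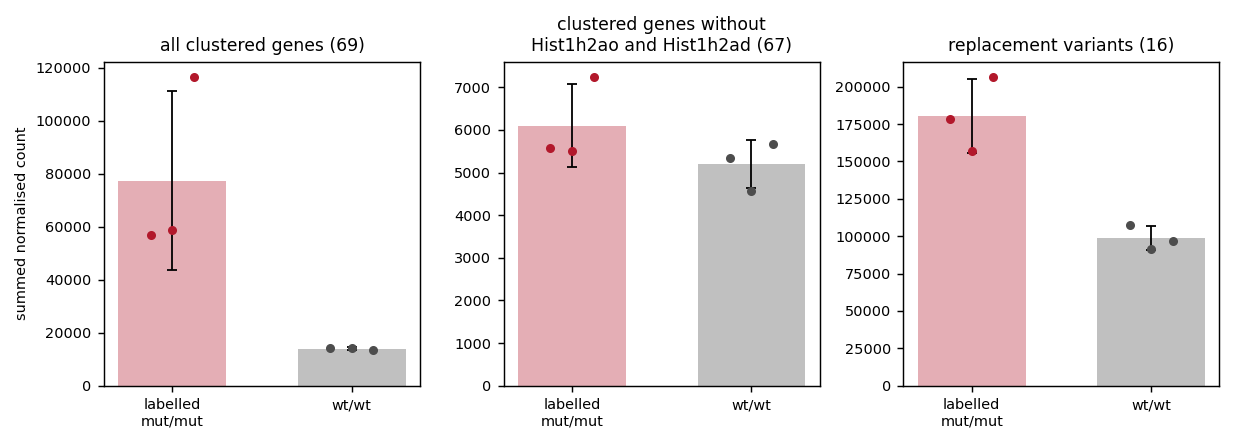
Summed normalised counts (y axes, each from 0) of all 69 clustered genes, of the 67 without Hist1h2ao and Hist1h2ad, and of the 16 replacement variants, in the mut/mut-labelled libraries and in wt/wt. Points are libraries, bars the means of 3, and error bars the SD. The clustered sum is 5.53-fold higher in mut/mut, whereas without these 2 genes the groups overlap.

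Hist1h2ao, an H2A gene of the chromosome 13 cluster, had 37145, 42901 and 73044 normalised counts in the mut/mut-labelled libraries, against 6100, 6490 and 6649 in wt/wt. Every mut/mut-labelled library lay above every wt/wt library (log2 fold change 2.93 ± 0.23, SE, limma adjusted p = 2.67e-06). Per kb of transcript it was the most abundant histone gene in mut/mut, at 106312 normalised counts against 13360 in wt/wt, and it was called higher under each of the 15 alternatives it entered, with a log2 fold change of 1.74 once the trend was removed. Hist1h2ad, a second H2A gene, had 13995, 10499 and 36114 normalised counts in the mut/mut-labelled libraries, against 2771, 3219 and 1108 in wt/wt. Its change was 3.02 ± 0.48 (SE, limma adjusted p = 2.51e-04) with no overlap, although mut/mut replicate 3 held more than the other 2 together. With the trend removed it was at 1.84 and still called (limma adjusted p = 0.0124). It lost its call with replicate number as a block, as deposited (limma adjusted p = 0.0979) and with the trend removed (limma adjusted p = 0.177). These genes share sequence with their neighbours: 93.1% of the 75-base words of the Hist1h2ao transcript occur elsewhere, mostly in Hist1h2ap, which was at 0 in every library, and 65.5% of those of Hist1h2ad. The assignment of reads with several matches is not given in the sources used here. The values therefore belong to a group of copies and not with certainty to the named gene.

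The other H2A genes were far lower. Of the 14 tested clustered H2A genes, 9 were called higher, against 36.8% of all genes, and 2 lower, against 38.7%. Of these 2, Hist1h2al is annotated as a processed pseudogene and was named after its values were seen. It had 0, 3.81 and 0 normalised counts in the mut/mut-labelled libraries and 113, 0.797 and 79.5 in wt/wt, and the groups overlapped. Hist2h2aa1, from the chromosome 3 cluster, had 912, 980 and 1384 normalised counts in the mut/mut-labelled libraries and 618, 461 and 416 in wt/wt, a log2 fold change of 1.13 ± 0.22 (SE, limma adjusted p = 9.90e-04) that was -0.08 with the trend removed. Its copy Hist2h2aa2, which shares every 75-base word with it, was at 0 in the mut/mut-labelled libraries and at 16.7, 30.8 and 122 in wt/wt. It was called lower (adjusted p = 5.19e-05), but no fold is given against a group listed at 0, and the pair summed to 912, 980 and 1384 against 635, 491 and 537, which was higher (0.96 ± 0.21, limma adjusted p = 0.00165, a fit added after the values were seen). Hist3h2a, on chromosome 11 and overlapped on the same strand by Trim17, had 673, 536 and 685 normalised counts in the mut/mut-labelled libraries and 821, 687 and 609 in wt/wt, and the groups overlapped. It lies outside the naming rule and was chosen after its values were seen, as the tested H2A gene with the longest 3′ UTR.

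H2B genes moved in both directions. Of 10 tested, 4 were called higher and 2 lower, where 36.8% and 38.7% of all genes were. The summed H2B value (mean ± SD of 3) was 1612 ± 111 normalised counts in mut/mut against 1985 ± 515 in wt/wt, which overlapped. Hist1h2bc, the most abundant, had 858, 1054 and 940 in the mut/mut-labelled libraries and 925, 989 and 1739 in wt/wt, with no call (-0.30 ± 0.24, SE, limma adjusted p = 0.275). Hist3h2ba, which ends in both a stem-loop and a polyadenylation signal, had 159, 159 and 166 normalised counts in the mut/mut-labelled libraries, against 334, 502 and 459 in wt/wt. It fell by 1.40 on the log2 scale (SE 0.21, limma adjusted p = 1.72e-04) and was called lower under all 16 alternatives. Of its words, 13.9% occur in other genes, against 45.7% to 100% for the other clustered genes called lower (Hist1h2al, Hist1h2br and Hist2h2aa2). Its pseudogene neighbour Hist3h2bb-ps, which was too low to test, had 1.31, 2.00 and 0 normalised counts in the mut/mut-labelled libraries against 6.53, 5.23 and 4.77. Hist2h2be, with 219, 179 and 175 normalised counts in the mut/mut-labelled libraries and 159, 164 and 138 in wt/wt, did not overlap between groups but was not called (0.31 ± 0.21, limma adjusted p = 0.207). It was called higher with the trend removed (1.04, limma adjusted p = 7.13e-04).

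Among the less abundant H2B genes, Hist1h2be had 47.1, 89.6 and 70.8 normalised counts in the mut/mut-labelled libraries and 12.3, 7.0 and 11.8 in wt/wt (log2 fold change 2.61 ± 0.37, SE, limma adjusted p = 1.07e-04). It was chosen after its values were seen, its annotated transcript overlaps Hist1h1e on the same strand, and reads of the overlap cannot be told apart. Hist1h2br was at 0, 0.767 and 0 in the mut/mut-labelled libraries and at 30.2, 0 and 135 in wt/wt. It was called lower (adjusted p = 0.0339), whereas its copy Hist1h2bq had 57.6, 71.6 and 61.9 in the mut/mut-labelled libraries and 53.2, 83.6 and 0 in wt/wt. The transcript of Hist1h2bq lies wholly within the words of Hist1h2br, wt/wt replicate 3 was at 0 for Hist1h2bq and at 135 for Hist1h2br, and the sum of the pair was not called (-0.61 ± 0.27, limma adjusted p = 0.0631).

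The linker histone genes were led by Hist1h1c, which encodes H1.2 and carries both 3′ ends. It had 1114, 925 and 1324 normalised counts in the mut/mut-labelled libraries and 1442, 959 and 1128 in wt/wt, and the groups overlapped (-0.06 ± 0.21, SE, limma adjusted p = 0.786). It was called lower with column totals set equal (-0.78, limma adjusted p = 0.00502) and once the trend was removed (-1.05, limma adjusted p = 2.96e-04). The rest were low. Hist1h1e had 50.3, 37.9 and 52.2 normalised counts in the mut/mut-labelled libraries and 14.3, 17.3 and 6.92 in wt/wt (1.86 ± 0.39, limma adjusted p = 0.00149). Hist1h1d (1.56 ± 0.45, limma adjusted p = 0.00852) and Hist1h1b (2.19 ± 0.59, limma adjusted p = 0.00611) were also called higher from wt/wt means of 9.86 and 3.21 normalised counts, and Hist1h1b was not called with the trend removed (1.01, limma adjusted p = 0.128). Hist1h1c held 1121 of the summed 1229 normalised counts of mut/mut H1 genes, and the H1 sums overlapped (mean ± SD of 3, 1229 ± 218 in mut/mut against 1208 ± 253 in wt/wt). As a share of the normalised total, H1 genes did not overlap and were lower in mut/mut (0.00225% to 0.00271%, against 0.00338% to 0.00489% in wt/wt).

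H3 and H4 genes were the lowest classes. The 12 clustered H3 genes summed to 319, 331 and 429 normalised counts in the mut/mut-labelled libraries and 261, 152 and 198 in wt/wt, and the 13 H4 genes to 364, 346 and 481 against 238, 145 and 254, so that both sums were separate between groups. As shares of the normalised total both overlapped, at 7.08e-04% to 7.69e-04% in mut/mut against 5.19e-04% to 8.61e-04% in wt/wt for H3, and 7.67e-04% to 8.62e-04% against 4.97e-04% to 8.75e-04% for H4. Of 9 tested H3 genes 6 were called higher, as were 6 of 7 tested H4 genes, against 36.8% of all genes. However, 5 of the tested H3 genes and 4 of the tested H4 genes had passed the filter only through mut/mut. With the trend removed, limma called 0 genes of either class at an adjusted p under 0.05, and 0 H3 genes and 1 H4 gene at an unadjusted p under 0.05. Hist1h3c had 47.5, 30.5 and 103 normalised counts in the mut/mut-labelled libraries and 18.1, 21.5 and 23.8 in wt/wt (1.30 ± 0.43, SE, limma adjusted p = 0.0181). Hist1h4i, the most abundant H4 gene, had 174, 150 and 174 in the mut/mut-labelled libraries and 139, 80.0 and 155 in wt/wt, which overlapped (0.46 ± 0.28, limma adjusted p = 0.150). Hist1h4h had 42.4, 45.1 and 90.4 in the mut/mut-labelled libraries and 26.1, 20.9 and 29.5 in wt/wt, and Hist1h4a 23.0, 35.6 and 37.9 against 12.6, 5.80 and 10.4, and both were called higher. Hist1h4n (2.14 ± 0.83, limma adjusted p = 0.0367) was not called once summed with its copy Hist1h4m (0.88 ± 0.49, limma adjusted p = 0.122).

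The chromosome 3 H3 genes show how copies limit these values. Hist2h3c1 had 25.3, 0 and 108 normalised counts in the mut/mut-labelled libraries and 88.9, 44.4 and 0 in wt/wt, and Hist2h3c2 had 90.9, 128 and 0 against 93.0, 42.4 and 116. Where a library was at 0 for either gene, it was at 108 or above for the other. Summed with Hist2h3b, which alone was called higher (1.87 ± 0.57, limma adjusted p = 0.0123), they gave 126, 161 and 158 normalised counts in the mut/mut-labelled libraries and 189, 91.1 and 125 in wt/wt, with no call (0.19 ± 0.29, limma adjusted p = 0.552).

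The clustered genes were also counted by level and by 3′ end. Over all genes tested, 36.8% were called higher and 38.7% lower. Of the 10 clustered genes with a mean of at least 100 normalised counts, 4 were called higher and 1 lower, with a median log2 fold change of 0.39. Of the 34 with a mean of 10 to 100, 24 were called higher and 3 lower, with a median of 1.34. Of 12 tested clustered genes with a polyadenylation signal at the end of the model, 4 were called higher and 2 lower (median 0.39), and of 32 without it 24 were higher and 2 lower (median 1.41). The filter enters both contrasts, because 15 of the 34 genes with a mean of 10 to 100 and 0 of the 10 above passed only through mut/mut, as did 14 of the 32 without a signal and 1 of the 12 with it. Once the trend was removed, the medians were 0.11 for the 10 genes of higher level and 0.18 for the 34 of lower level, and 0.08 with a signal and 0.37 without. Of the 67 coding clustered genes, 15 had models that ended within 2 bases of the stop codon, and all of these counted as without a signal. The split is therefore one of annotated models and not of RNA ends. The medians are descriptions and their differences were not tested. The 25 clustered genes that did not pass the filter included 2 at 0 in every library, Hist1h2ap and the testis-type gene Hist1h2ba.

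**Figure D3:**
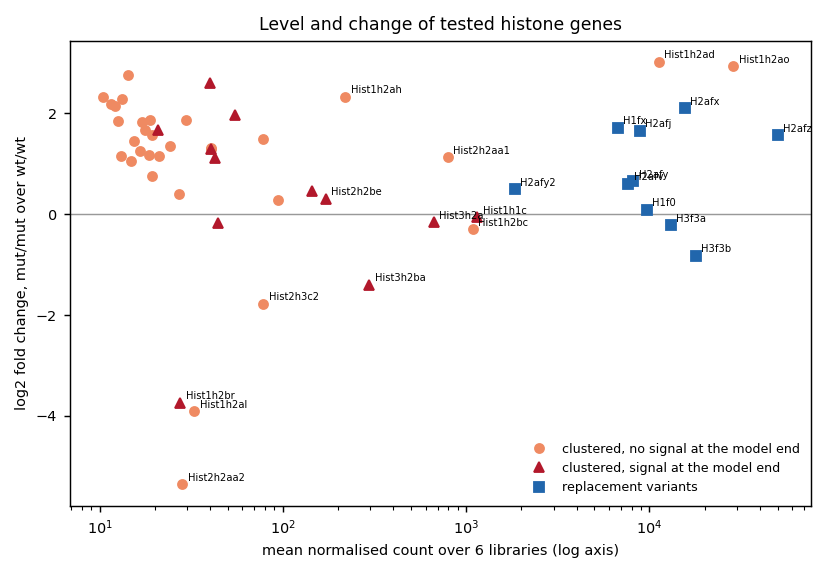
Mean normalised count over the 6 libraries (x axis, log scale) against log2 fold change of mut/mut over wt/wt (y axis) for the 54 tested histone genes. Triangles are clustered genes with a polyadenylation signal at the end of the annotated transcript, circles those without, and squares replacement variants. Clustered genes of low level lie mostly above 1, Hist1h2ao and Hist1h2ad stand apart at high level, and Hist1h1c, Hist1h2bc and Hist3h2a lie near 0.

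The replacement variants were abundant in all libraries. They took 0.396%, 0.348% and 0.370% of the normalised total in the mut/mut-labelled libraries, against 0.354%, 0.314% and 0.334% in wt/wt, and these ranges overlapped. Of the 16 genes, 10 passed the filter, each with a mean of at least 10 in both groups, and 8 of these were called (80.0%, against 75.5% of all genes), 7 higher and 1 lower. The median log2 fold change was 0.62 as deposited, -0.09 with column totals set equal (4 higher, 3 lower) and 0.50 with the trend removed (6 higher, 1 lower). Of all genes, 2874 of 13964 were higher and 7612 lower with equal totals. With the trend removed, 5556 of 13813 were higher and 4125 lower. The 6 variants that did not pass the filter were at or near 0. H1fnt, H1foo, H2afb1 and H2afb2, germline or testis genes, were at 0 in all libraries. H2afb3 reached 1.56 and H2afy3 2.48 normalised counts.

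The H2A variants carried the rise. All 6 tested H2A variants were called higher, where 36.8% of all genes were. Their sum was 130186, 116624 and 158723 normalised counts in the mut/mut-labelled libraries against 52628, 45340 and 49884 in wt/wt. H2afz, which encodes H2A.Z, a variant of promoters and regulatory nucleosomes, was the most abundant, with 71714, 65994 and 86870 normalised counts in the mut/mut-labelled libraries and 27581, 22838 and 25303 in wt/wt. Its log2 fold change was 1.56 ± 0.16 (SE, limma adjusted p = 1.13e-05), and other genes hold 61.7% of its transcript's words. H2afx encodes H2A.X, whose phosphorylated form marks DNA breaks, and had 22721, 20212 and 33375 normalised counts in the mut/mut-labelled libraries and 6321, 5119 and 6056 in wt/wt. As deposited its rise of 2.10 ± 0.20 (limma adjusted p = 7.86e-06) was the largest of the replacement variants, and it is the variant with the stem-loop shown above.

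H2afj, which encodes H2A.J, had 13337, 10674 and 16532 normalised counts in the mut/mut-labelled libraries and 4469, 3820 and 4492 in wt/wt (1.65 ± 0.18, SE, limma adjusted p = 2.01e-05). H2afx, H2afz, H2afj and H1fx were called higher under all 16 alternatives, though with the trend removed they were at 1.04, 1.07, 0.78 and 0.41. The other H2A variants lost their calls under some alternatives. H2afv, a second H2A.Z gene, had 9172, 8025 and 10549 normalised counts in the mut/mut-labelled libraries and 6014, 5752 and 6419 in wt/wt (0.60 ± 0.16, limma adjusted p = 0.00510), and was at -0.11 with column totals set equal. The macroH2A genes H2afy and H2afy2, whose products carry a large extra domain and are linked to silent chromatin, rose by 0.65 ± 0.14 and 0.49 ± 0.16 (limma adjusted p = 0.00203 and 0.0151). H2afy had 10981, 9504 and 9394 normalised counts in the mut/mut-labelled libraries and 6505, 6361 and 6185 in wt/wt, and both genes fell below 0 on the log2 scale under the equal totals (-0.07 and -0.22) and with the trend removed (-0.11 and -0.26), with no call.

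The linker variants parted. H1fx, which encodes H1X, had 9132, 7673 and 14284 normalised counts in the mut/mut-labelled libraries and 3413, 2936 and 2848 in wt/wt (1.71 ± 0.22, SE, limma adjusted p = 5.45e-05). H1f0, which encodes H1.0, a linker histone that accumulates in differentiated and resting cells, had 10087, 9031 and 10605 in the mut/mut-labelled libraries and 11399, 8179 and 8571 in wt/wt. Its groups overlapped (0.09 ± 0.17, limma adjusted p = 0.639), and it was called lower with column totals set equal (-0.62) and once the trend was removed (-0.51).

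The H3.3 genes did not rise as deposited. H3f3a and H3f3b encode the same H3.3 protein, the replacement form of H3. H3f3b had 14295, 11607 and 12901 normalised counts in the mut/mut-labelled libraries, against 24173, 22198 and 22165 in wt/wt, with no overlap (-0.82 ± 0.15, SE, limma adjusted p = 4.63e-04). H3f3a had 14496, 12027 and 9790 in the mut/mut-labelled libraries and 15823, 12961 and 13285 in wt/wt, which overlapped (-0.22 ± 0.18, limma adjusted p = 0.270). Both transcripts are AT-rich among the variants (43.15% and 43.44% GC), and with the trend removed H3f3a was called higher (1.07, limma adjusted p = 2.50e-05) and H3f3b was at 0.31 with no call (limma adjusted p = 0.112). Their direction therefore depended on whether the trend was taken out.

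**Figure D4:**
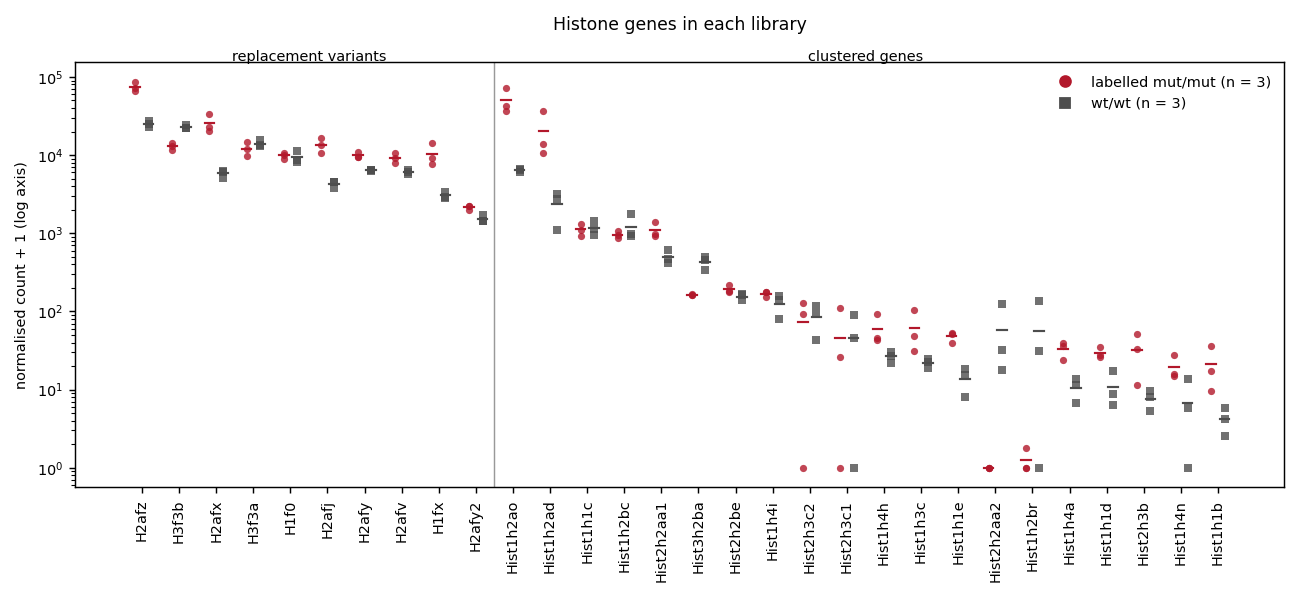
Normalised count plus 1 (y axis, log scale) of the 10 tested replacement variants and 20 clustered genes in each library, with circles for the 3 mut/mut-labelled libraries, squares for the 3 wt/wt libraries, and lines for the group means. H2afx, H2afz, H2afj, H1fx, Hist1h2ao and Hist1h2ad are separate between groups with mut/mut higher, while H3f3b and Hist3h2ba are separate with mut/mut lower.

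Clustered genes are often arranged head to head around a shared promoter. Within 1000 bases, 14 such pairs were found, 13 of them an H2A with an H2B gene. In the 4 pairs in which both genes were tested, all log2 fold changes were above 0: 1.30 for Hist1h2ae and 0.76 for Hist1h2bg, 2.33 for Hist1h2ah and 1.32 for Hist1h2bk, 1.36 for Hist1h2ai and 2.76 for Hist1h2bl, and 2.93 for Hist1h2ao and 1.96 for Hist1h2bq. Hist1h2bg and Hist1h2bq were not called, and the value of Hist1h2bq (SE 1.69) includes the wt/wt library at 0 described above and was -0.61 for the sum with its copy. Once the trend was removed, Hist1h2bg was at -0.31 and Hist1h2ai at 0.01. Hist1h2ai, and Hist1h2ae and Hist1h2bk (both 0.18), then lost their calls. Hist1h2ah (1.06), Hist1h2bl (1.62) and Hist1h2ao (1.74) kept theirs. Hist1h2bl had passed the filter only through mut/mut (wt/wt mean 3.22). The 250 bases before the RefSeq start of Hist1h2bk (GRCm38.p6, chr13:22035571-22035820, plus strand) span the space between it and Hist1h2ah and are shown with matches on either strand to the CCAAT box, to the TATA motif TATAAA and to the octamer ATTTGCAT in capitals.
Hist1h2bk: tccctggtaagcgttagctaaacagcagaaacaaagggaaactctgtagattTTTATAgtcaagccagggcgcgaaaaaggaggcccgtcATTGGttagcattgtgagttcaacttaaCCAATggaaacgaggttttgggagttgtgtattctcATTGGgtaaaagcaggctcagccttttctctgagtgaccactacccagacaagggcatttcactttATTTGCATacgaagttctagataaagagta
Promoters from 250 bases before to 50 after the start were found for 76 of the 85 genes. CCAAT, on either strand, was in 53 of 62 clustered promoters (85.5%) and 10 of 14 replacement promoters (71.4%), against 37.4% of all 32851 promoters, but in only 3 of 12 H4 promoters. TATAAA was in 56.5% of clustered and 7.14% of replacement promoters, against 13.6% of all. The octamer was in 7 of 18 H2A and 6 of 16 H2B promoters and in 0 of 28 promoters of the clustered H1, H3 and H4 genes, against 1.74% of all. These are matches of letters and say nothing of binding.

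The genes that make, process and place histones were taken as lists. In the list of histone gene transcription, 3 of 10 were called higher and 5 lower (median log2 fold change -0.97, against -0.07 over all genes), and 80.0% were called, against 75.5% of all genes. Once the trend was removed, 6 were higher and 2 lower, with a median of 0.73 against 0.13 over all genes. In that setting 5556 of 13813 genes were higher and 4125 lower. Npat, the coactivator of clustered histone genes that is driven by cyclin E and CDK2, had 107, 92.5 and 56.0 normalised counts in the mut/mut-labelled libraries, against 909, 864 and 824 in wt/wt (-3.38 ± 0.25, SE, limma adjusted p = 2.07e-06). Casp8ap2 (FLASH), which joins transcription and 3′ end processing in the histone locus body, had 35.4, 20.9 and 33.8 against 569, 426 and 402 (-3.93 ± 0.27, limma adjusted p = 1.33e-06). Both are long, AT-rich transcripts (40.33% and 41.01% GC), and with the trend removed they were lower by much less, at -0.54 and -1.11, with the calls kept. Ccne1, the cyclin E1 gene, had 3711, 4159 and 5150 normalised counts in the mut/mut-labelled libraries and 727, 555 and 634 in wt/wt (2.76 ± 0.18, limma adjusted p = 9.86e-07). Pou2f1, the octamer-binding factor Oct-1, was at -2.21 ± 0.21 as deposited but at 0.66 with the trend removed, and Nfyc, a subunit of the CCAAT-binding factor NF-Y, rose by 1.46 ± 0.19. The other NF-Y genes of the list did not rise: Nfyb was called lower (-1.67, and 0.09 with the trend removed) and Nfya was not called. Ccne2, a second cyclin E gene, was called lower (-1.66) but was at 1.18 with the trend removed. Nfyb, Nfya and Ccne2 were named after their values were seen. Hinfp, the activator of H4 genes, was not called (-0.26 ± 0.18, limma adjusted p = 0.210) and was at 0.80 with the trend removed.

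In the list of histone mRNA 3′ end processing, 12 of 20 were called higher and 5 lower (median 0.52), so that 85.0% were called, against 75.5% of all genes. Slbp, which encodes the protein that binds the stem-loop, had 1399, 1266 and 916 normalised counts in the mut/mut-labelled libraries and 1946, 1535 and 1531 in wt/wt. It was called lower (-0.50 ± 0.20, SE, limma adjusted p = 0.0418), a call that was kept with the trend removed (-0.37) but lost without any of 5 of the 6 libraries in turn. The U7 snRNP genes Lsm10 (1.35 ± 0.18) and Lsm11 (0.51 ± 0.16), the Sm protein gene Snrpb (2.08 ± 0.18) and the cap-binding gene Ncbp1 (1.40 ± 0.17) were called higher. Lsm11 was at -0.20 with equal totals, and Lsm10 at 0.19 with the trend removed. With the trend removed 13 were called higher and 1 lower, where 5556 of 13813 genes were higher and 4125 lower. Under equal totals the list had 5 called higher and 8 lower, where 2874 of 13964 genes were higher and 7612 lower.

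Of 16 replication-coupled chaperone genes 8 were called higher and 4 lower (median 0.54), and this 75.0% is close to the 75.5% of all genes. Asf1b, a chaperone of H3 and H4 in dividing cells, had 2250, 2139 and 3153 normalised counts in the mut/mut-labelled libraries and 686, 495 and 624 in wt/wt (2.05 ± 0.20, SE, limma adjusted p = 9.91e-06). Chaf1b, a subunit of the replication chaperone CAF-1, had 3782, 3980 and 5028 against 1111, 833 and 871 (2.18 ± 0.18, limma adjusted p = 3.61e-06). Ipo4, an importer of H3 and H4, and Rbbp4, which binds H4, rose by 2.12 ± 0.19 and 1.83 ± 0.15. Nasp, which holds the soluble H3 and H4 reserve, had 2753, 1780 and 1657 normalised counts in the mut/mut-labelled libraries and 5041, 3590 and 3863 in wt/wt (-1.04 ± 0.22, limma adjusted p = 0.00154, and -0.38 with the trend removed, with no call), and Supt16, a subunit of FACT, was at -3.03 ± 0.24. With the trend removed 13 were higher and 1 lower, where 5556 of 13813 genes were higher and 4125 lower.

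All 17 genes listed as placing replacement variants were called, 10 higher and 7 lower (median 0.56), where 75.5% of all genes were called. After removing the trend 11 were higher and 3 lower, where 5556 of 13813 genes were higher and 4125 lower. Under equal totals 6 were higher and 7 lower, where 2874 of 13964 genes were higher and 7612 lower. Anp32e, which removes H2A.Z from chromatin, had 3331, 3232 and 1542 normalised counts in the mut/mut-labelled libraries, against 16778, 15813 and 15101 in wt/wt (-2.64 ± 0.27, SE, limma adjusted p = 1.09e-05). Atrx, which places H3.3 at repeats with Daxx, had 68.9, 40.4 and 85.1 against 3545, 3455 and 3503 (-5.80 ± 0.26, limma adjusted p = 1.88e-07). Ubn2, of the HIRA complex, was at -3.56 ± 0.21. With the trend removed these 3 genes were still called lower, at -1.55, -2.43 and -0.48. Ruvbl1, a helicase subunit of the complexes that exchange H2A.Z, had 4615, 4485 and 4852 normalised counts in the mut/mut-labelled libraries and 1904, 1662 and 1760 in wt/wt (1.39 ± 0.15, limma adjusted p = 1.33e-05), and was at 0.61 with the trend removed. Hira, the H3.3 chaperone, had 4353, 4866 and 4078 normalised counts in the mut/mut-labelled libraries and 3420, 2652 and 2855 in wt/wt (0.58 ± 0.16, limma adjusted p = 0.00745), which was -0.13 with equal totals.

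**Figure D5:**
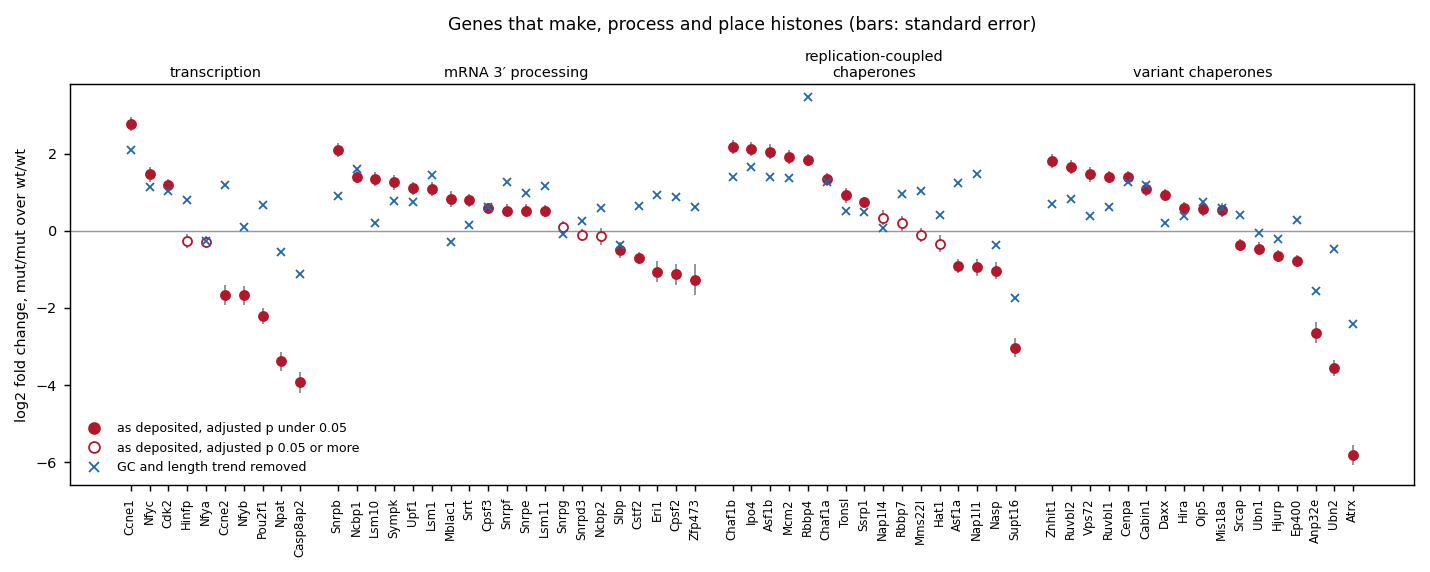
Log2 fold change of mut/mut over wt/wt (y axis) for the genes of 4 lists (x axis): histone gene transcription, histone mRNA 3′ processing, replication-coupled chaperones and chaperones of replacement variants. Circles with bars are the values as deposited with their standard error (filled: adjusted p under 0.05) and crosses the values after removing the GC and length trend. The crosses of Npat and Casp8ap2 lie at -0.54 and -1.11, above their circles at -3.38 and -3.93.

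Clustered histone genes follow S phase, and genes of the cycle moved as follows. Of 24 S-phase genes 16 were called higher and 1 lower (median 1.04, 70.8% called against 75.5% of all genes), with Tk1, a thymidine kinase, at 2.59 ± 0.20 (SE), Gins2, of the replicative helicase, at 2.04 ± 0.17, and Pola1, the polymerase alpha subunit, at -3.52 ± 0.26. With the trend removed 22 were higher and 1 lower, where 5556 of 13813 genes were higher and 4125 lower. Of 16 G2/M genes 7 were called higher and 7 lower (median -0.08, 87.5% called), with Mki67 at -4.32 ± 0.24, Cenpe at -4.58 ± 0.26 and Cenpf at -4.63 ± 0.24, all long transcripts that were at -2.23, -2.0 and -1.79 with the trend removed. The part of the cell cycle in the histone values was not tested.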

How the data were processed

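RNA was measured in 3 Tsc2 mut/mut and 3 wt/wt NSC cultures with a kit that does not mark strand. Per the methods and the submitters' processing notes, reads were aligned to mm10 with STAR and genes normalised with DESeq2 by the authors. The signal deposited for each of 24972 gene names was this normalised value, and 6503 names were at 0 throughout. The gene counter, annotation and treatment of reads with several matches are not given in the sources used here. Values entered the fit as log2(value + 1) without further scaling. Testing used limma 3.58.1 under R 4.3.3 on 13964 genes, those averaging 10 or more (moderated, with trend and robust settings, two-sided, Benjamini-Hochberg over all genes). As an alternative, the dependence on GC content and transcript length was fitted per library with mgcv 1.9.3 and removed, and other alternatives were equal totals, other filters and pseudocounts, leaving out each library, a replicate block, limma without trend and robust settings, and summing copies that share at least 75% of their 75-base words (added after the values were seen). Positions, transcripts and words came from GENCODE M21, and promoters from RefSeq, with python 3.11.15. The column of wt/wt replicate 2 differs from its label by 1 inserted digit.

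The members and lists were chosen with earlier results of these data known. Named were Tsc2, every tested replacement variant, the 3 most abundant and the most changed called gene of each clustered class, 10 fixed partner genes, and up to 3 more per list by adjusted p. Depth was estimated only, so no counting intervals are given. A gene of the lists is not reported here.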

Additional observations from a re-analysis of the deposited data

How the results depend on the processing

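With column totals set equal, 12 clustered genes were called higher (median 0.60), and 4 replacement variants higher and 3 lower (median -0.09). Of all 13964 genes, 2874 were called higher and 7612 lower. In the same setting 5 mRNA processing genes were higher and 8 lower, 6 chaperone genes of replacement variants were higher, and 4 S-phase genes were lower. H1f0 (-0.62), H2afv (-0.11), H2afy (-0.07), H2afy2 (-0.22), Hist2h2be (-0.40), Hist1h4i (-0.24), Lsm11 (-0.20) and Hira (-0.13) then changed sign. With the GC and length trend removed, 9 clustered genes were higher (median 0.18, and 0.50 for replacement variants). Of 13813 genes, 5556 were higher and 4125 lower. In this setting 1 mRNA processing gene was lower, and 6 transcription genes were higher and 2 lower. Of the replication-coupled chaperone genes 13 were higher and 1 lower, and 3 chaperone genes of replacement variants were lower. H1f0 (-0.51), H2afy (-0.11), H2afy2 (-0.26), H3f3a (1.07), H3f3b (0.31), Hist2h2aa1 (-0.08), Hist1h4i (-0.58), Hist1h4h (-0.02), Hinfp (0.80) and Pou2f1 (0.66) changed sign, and did so at the same values with the replicate block added, where 8 clustered genes were higher and 2 replication-coupled chaperone genes lower. The value of 4.68 for Hist1h1d rests on an annotated transcript of 7425 bases. With the filter raised to a mean of 100, 4 clustered genes were higher and 1 lower (median 0.39), since fewer genes were tested. With near-identical copies summed, 2 clustered genes were called lower.

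Each library's deviations from its genotype mean were correlated across genes between same-numbered libraries. This gave 0.112, -0.004 and 0.071, so the numbers were not taken as pairs. With a replicate block, 27 clustered genes were higher and 2 lower, 7 replacement variants were higher and 1 lower, 2 S-phase genes were lower, and Hist1h2ad (adjusted p = 0.0979), Hist1h2al (adjusted p = 0.257), Hist1h2br (adjusted p = 0.0747) and Hist1h4d (adjusted p = 0.0536) lost their calls. Without the 2 most abundant clustered genes, the clustered share was 0.0125% in mut/mut and 0.0176% in wt/wt.

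Leaving out each library gave 21 to 27 clustered genes higher (21 without mut/mut replicate 3) and 2 to 4 lower, 2 of them without mut/mut replicate 1 or 3 or wt/wt replicate 1 or 3. It gave 6 to 7 replacement variants higher and 1 lower. The mRNA processing list had 3 lower without wt/wt replicate 2, and the S-phase list 2 lower without mut/mut replicate 1. Calls were lost for H2afy2 without mut/mut replicate 2 (0.47) or wt/wt replicate 2 or 3 (0.45, 0.44), Hist1h3c without mut/mut replicate 3 (0.83) or wt/wt replicate 1 (1.19), Hist2h3b without mut/mut replicate 3 (1.39), Hist1h4h without wt/wt replicate 2 (0.98), Lsm11 without wt/wt replicate 3 (0.50), Hist1h4n without any library but wt/wt replicates 1 and 2 (1.09 to 2.31), Hist1h2br without any but mut/mut replicate 2 and wt/wt replicate 2 (-3.61 to -2.21), Hist1h2al without any but mut/mut replicate 2 and wt/wt replicate 2 (-3.53 to -2.83), and Slbp without any but mut/mut replicate 1 (-0.56 to -0.32). Calls were also lost for Hist1h4d without any library but mut/mut replicate 2 (0.81 to 1.14). The same held for Hist1h2ai without mut/mut replicate 3 or wt/wt replicate 1 or 2 (0.80 to 1.33). Hist1h3g lost its call without mut/mut replicate 1 or wt/wt replicate 2 or 3 (0.97 to 1.17). So did Hist1h3d without mut/mut replicate 3 or wt/wt replicate 1, Hist1h2ak without mut/mut or wt/wt replicate 3, and Hist1h4k without wt/wt replicate 2. Hist1h1c (-0.20 to 0.09), Hist2h3c1 (-2.17 to 1.74) and Hist2h3c2 (-3.03 to 0.48), none of them called, changed sign without 1 library or another. The cause of these changes was not tested.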
